A study of Rattus norvegicus with 15 samples.

Results

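The ephrin, Slit and netrin guidance genes were followed in 15 RNA-seq libraries of rat embryo brain cortex from 3 stages of gestation, called E14.5, E16.5 and E18.5 after the embryonic day. The group was a list of gene names with no threshold on any value, drawn up with earlier results of these data known: 35 genes, namely 13 Eph receptors, 8 ephrins, 3 Slits, 3 Robo receptors, 2 netrins and 6 netrin receptors. Rows with those names were found for 34 of the 35 among the 32623 genes of the count table, and all 34 were among the 15417 genes that passed the filter on low counts and were tested. No row was named Epha6. The embryos were Wistar rats of both diet groups. Control mothers ate normal chow, whereas the mothers of the high-fat diet (HFD) group ate a commercial diet with 60% of its calories from fat and were obese before they were mated with healthy males. According to the methods of the study, each library came from frontal lobe cortices pooled over 1 litter, so a library averages siblings and its spread is that between litters. Each stage had 3 control and 2 HFD libraries.

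These 3 systems are among the guidance cues of the developing nervous system, beside others such as the semaphorins. Ephrins are membrane-bound ligands, the A class held by a lipid anchor and the B class spanning the membrane, and Eph receptor tyrosine kinases on the neighbouring cell read them, mostly as repulsion, while the ephrin can signal back into its own cell. Slits are large secreted proteins that repel axons and migrating neurons through Robo receptors, and netrins are laminin-related proteins that attract through Dcc and neogenin and repel when a receptor of the Unc5 family is present. In the developing cortex these cues take part in the layering of neurons, in the crossing of the midline by callosal axons and in the matching of thalamic axons to cortical areas.

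Levels were expressed as CPM, the counts of a gene scaled to a common library size, with TMM factors that correct for differences in library composition. A gene was called when edgeR's quasi-likelihood test gave a Benjamini-Hochberg adjusted p under 0.05 over all 15417 genes, and a log2 fold change of 1 is a doubling. Levels are compared only within a gene, since no transcript lengths were used. Values are listed by replicate number, control before HFD. Library totals ran from 5598195 to 9529978 counts. The library labelled E18.5 control replicate 1 stood apart from the rest and was kept out of the fit. It lay outside the range of the other 4 E18.5 libraries for 32 of the 34 members, above it for 17 and below it for 15, and inside the E14.5 range for 21. The shares of all genes are not given here, so these counts are not read as particular to the members. Its biological coefficient of variation with E14.5 control replicate 1 was 0.093, the lowest of the 105 pairs of libraries, where the next lowest was 0.116. The labels were kept as deposited, and where this library changed a call or a count of the members, the value with it is given too.

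Expression of cortical neuron markers in these libraries rose with age, and markers of tissue around the brain fell. All 13 cortical neuron markers were called higher at E18.5 than at E14.5 over both diets, and their summed level rose from 1361 to 3331 CPM in the E14.5 libraries to 7572 to 8161 CPM at E18.5. Of the 15 head mesenchyme and meninges markers, 14 were tested and 13 were called lower over the same span, with sums of 1851 to 5847 CPM at E14.5 and 532.4 to 1316 CPM at E18.5. At E14.5 the mesenchyme sum was 5847, 3242 and 1851 CPM in the control libraries and 4949 and 4426 CPM in the HFD libraries. Hindbrain and branchial arch markers, mostly Hox genes, summed to 28.3 CPM in E14.5 control replicate 1, to 10.4 and 6.67 CPM in the HFD libraries of that stage and to under 1 CPM in the other control libraries. In the library set apart they summed to 30.4 CPM, the neuron markers to 2747 CPM, inside the E14.5 range, and the mesenchyme markers to 4896 CPM, above the other E18.5 libraries. Hoxa2, Hoxb1, Hoxb2 and Hoxb3 were at 0 in all 5 E16.5 libraries, and of the mesenchyme markers only Twist2 was at 0, in E16.5 HFD replicate 1. These markers move with the same libraries as the guidance genes below. Their part in those results was not tested beyond a fit with the head mesenchyme markers as a covariate, given below. In bulk tissue, fewer cells of a type and less RNA per cell cannot be told apart.

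**Figure D1:**
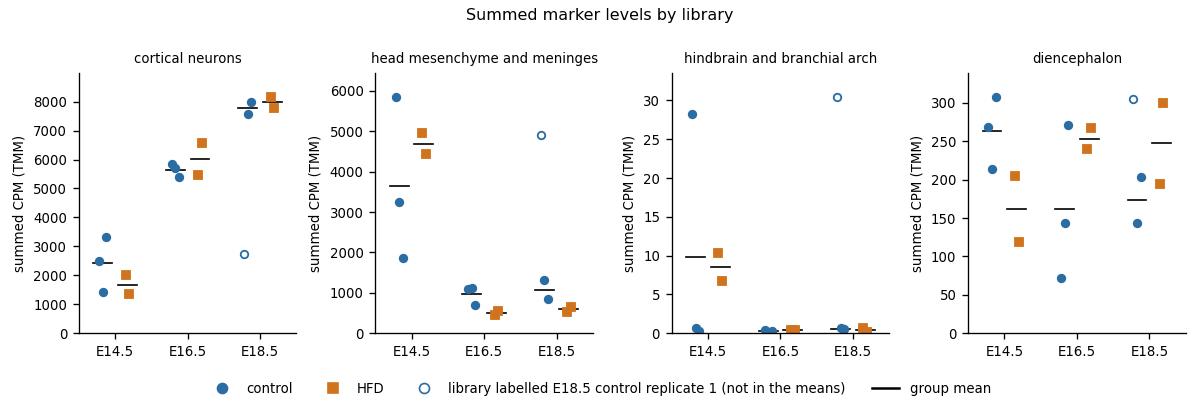
Summed CPM of 4 marker lists in each library, by stage, with control as circles, HFD as squares, the group mean as a line and the library labelled E18.5 control replicate 1 as an open circle. The neuron sum is lowest and the mesenchyme sum highest at E14.5, and the open circle lies with E14.5 control replicate 1 in the hindbrain panel, at 30.4 against 28.3 CPM.

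The first question was how the guidance genes changed as the cortex developed. Between E14.5 and E18.5, with both diets weighted equally, 16 of the 34 members rose and 13 fell, and 5 did not pass the test. Over all genes tested, 28.9% were called higher and 28.9% lower in this comparison. By system, 9 of the 20 Eph and ephrin members rose and 8 fell, 3 of the 6 Slit and Robo members rose and 3 fell, and 4 of the 8 netrin members rose and 2 fell. Every role except the netrins held members of both directions, among them Slit1 against Slit2 and Slit3, and Unc5a and Unc5d against Unc5b and Unc5c. The median log2 fold change of the members was 0.12, beside -0.02 over all genes tested, and the members ran from -2.16 for Robo3 to 2.92 for Unc5a. With all 15 libraries 24 of the 29 calls remained, and those of Efnb2, Epha3, Epha7, Robo3 and Slit3 were lost. With the mean level of the head mesenchyme markers, which fall with stage, as a covariate, Ephb6 alone kept its call among these 29, and the fitted signs of Epha3, Epha5, Epha7, Ephb3, Efna1, Efna5, Efnb2, Slit3 and Robo3 turned.

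**Figure D2:**
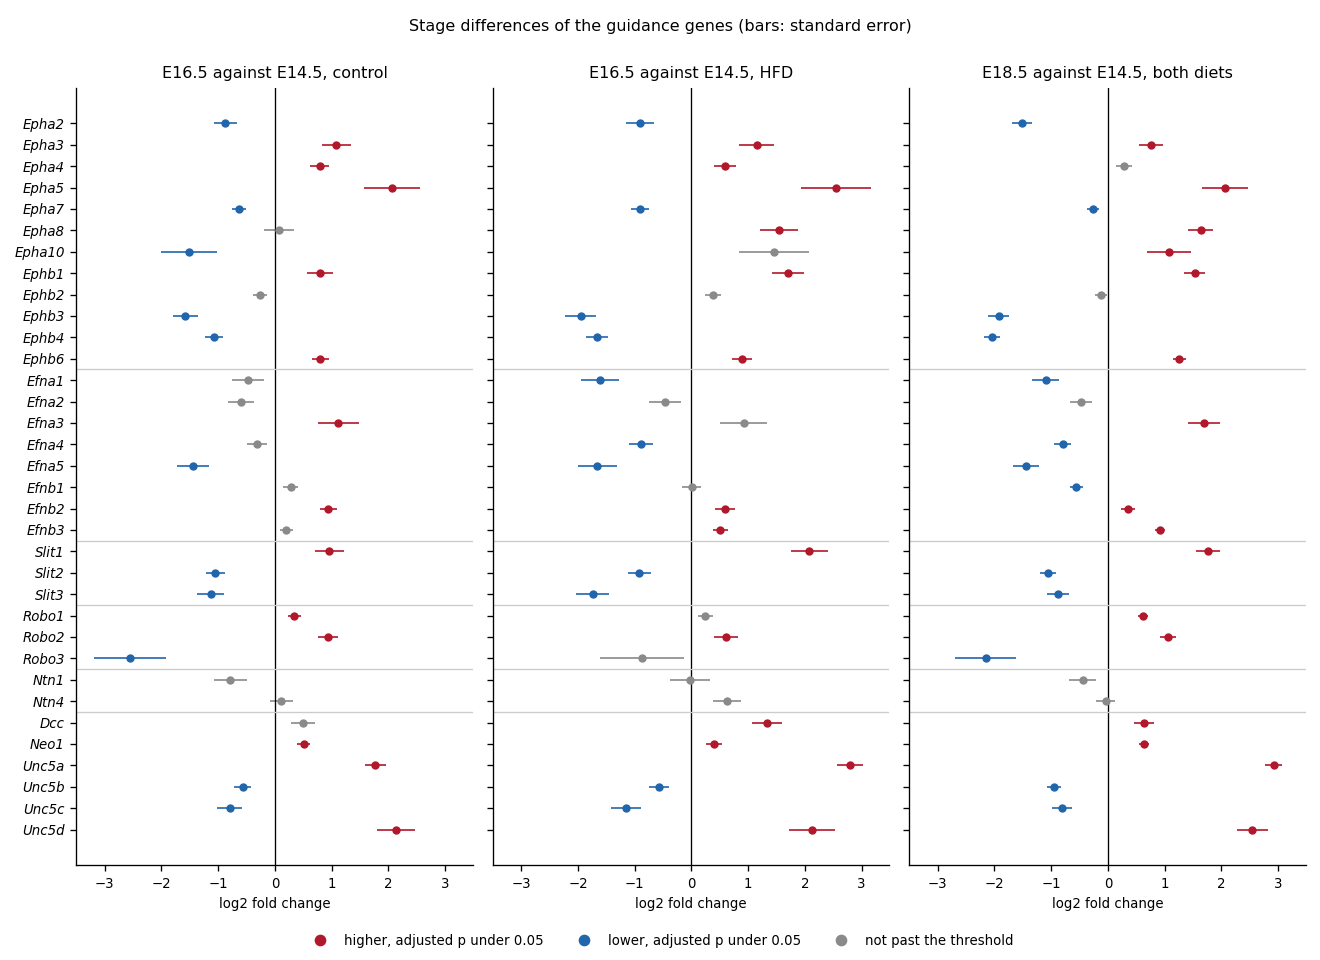
Log2 fold changes of the 34 members with their standard errors for E16.5 against E14.5 in control, the same step in HFD, and E18.5 against E14.5 over both diets, in order of role and on a shared axis. Red and blue points passed an adjusted p of 0.05. Unc5a and Unc5d lie farthest to the right in the last panel, at 2.92 and 2.54, and Robo3 and Ephb4 farthest to the left, at -2.16 and -2.04.

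Promoter sequences are shown for Unc5a and Ephb6, the members with the smallest p among those that rose and had a sequence, and for Ephb4 and Ephb3, the same among those that fell. The windows are 300 bases around the annotated start from RefSeq on the GRCr8 build, which matched 27 of the 34 members. The count table itself was made on rn6. Capitals mark matches, on either strand, to the E-box CANNTG, the site class of basic helix-loop-helix factors, and to the GC box GGGCGG, the site class of Sp factors, and no E-box overlapped a GC box in the 4 windows.
Unc5a (chr17:9675614-9675913, minus strand): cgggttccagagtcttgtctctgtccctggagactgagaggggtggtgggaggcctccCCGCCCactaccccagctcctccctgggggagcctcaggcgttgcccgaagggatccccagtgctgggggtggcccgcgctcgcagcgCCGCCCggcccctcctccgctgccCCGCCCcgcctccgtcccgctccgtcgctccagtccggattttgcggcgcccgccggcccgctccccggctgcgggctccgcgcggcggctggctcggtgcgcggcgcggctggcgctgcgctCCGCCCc
Ephb6 (chr4:71458382-71458681, plus strand): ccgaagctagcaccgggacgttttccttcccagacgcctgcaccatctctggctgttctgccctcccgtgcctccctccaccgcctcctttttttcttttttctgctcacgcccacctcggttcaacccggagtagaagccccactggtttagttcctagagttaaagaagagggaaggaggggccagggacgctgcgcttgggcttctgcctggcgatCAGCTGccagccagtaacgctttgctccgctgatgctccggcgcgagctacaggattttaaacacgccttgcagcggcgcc
Ephb4 (chr12:24988339-24988638, minus strand): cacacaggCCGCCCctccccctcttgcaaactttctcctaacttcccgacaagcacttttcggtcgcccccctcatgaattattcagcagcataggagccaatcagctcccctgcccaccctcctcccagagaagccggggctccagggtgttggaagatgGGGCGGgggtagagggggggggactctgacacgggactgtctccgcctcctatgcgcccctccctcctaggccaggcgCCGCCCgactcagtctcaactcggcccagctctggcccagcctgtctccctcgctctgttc
Ephb3 (chr11:93363726-93364025, minus strand): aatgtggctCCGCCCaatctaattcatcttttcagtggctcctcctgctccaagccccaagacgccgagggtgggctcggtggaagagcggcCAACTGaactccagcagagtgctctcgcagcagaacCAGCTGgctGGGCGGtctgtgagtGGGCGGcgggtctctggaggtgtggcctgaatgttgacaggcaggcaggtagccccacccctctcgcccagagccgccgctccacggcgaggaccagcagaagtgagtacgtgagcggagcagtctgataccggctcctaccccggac
Unc5a holds 4 GC boxes and no E-box, Ephb6 holds 1 E-box and no GC box, Ephb4 holds 3 GC boxes, and Ephb3 holds 3 GC boxes and 2 E-boxes. An E-box was present in 14 of the 27 member windows (51.9%), beside 72.1% of all 33469 RefSeq windows of this length, and a GC box in 15 (55.6%), beside 33.1%. The TATA box letters TATAAA were found in none of the 27 and in 14.2% of all windows. GC content had a median of 64.3% in the members and 51.7% in all windows. The members that rose had an E-box in 8 of 13 windows and a GC box in 5, and those that fell in 5 and 8 of 11. These are matches of letters and do not show binding.

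Among the netrin receptors, Unc5a, which with Dcc mediates repulsion by netrin, had the largest rise of all members. It read 6.68, 5.15 and 8.70 CPM in the control and 4.97 and 3.18 CPM in the HFD libraries of E14.5, 24.9, 24.5 and 20.9 against 29.4 and 27 CPM at E16.5 and 35.6 and 33.9 against 47.6 and 44.7 CPM at E18.5. Each stage lay wholly above the one before it, in both diets. The log2 fold change from E14.5 to E18.5 was 2.92 ± 0.15 (SE, edgeR adjusted p = 2.75e-07), a 7.58-fold rise. Unc5d, a receptor that also binds the FLRT proteins and marks migrating neurons of the mouse cortex, read 14.6, 6.53 and 16.4 CPM in the control and 13.97 and 12.8 CPM in the HFD libraries of E14.5, 73.5, 59.1 and 31.9 against 54.3 and 62.6 CPM at E16.5 and 73.7 and 66.97 against 84.7 and 76.1 CPM at E18.5. All later libraries exceeded all E14.5 libraries, while E16.5 and E18.5 overlapped, and the change over the whole span was 2.54 ± 0.27 (SE, edgeR adjusted p = 1.11e-05). Neo1 encodes neogenin, a relative of Dcc that also binds repulsive guidance molecules. Its values were 159, 164 and 162 CPM in the control and 162 and 195 CPM in the HFD libraries of E14.5, 244, 242 and 204 against 221 and 252 CPM at E16.5 and 232 and 283 against 267 and 275 CPM at E18.5. Its E14.5 libraries were the lowest, and it rose by 0.64 ± 0.09 (SE, edgeR adjusted p = 8.74e-05).

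The other Unc5 receptors moved the opposite way. Unc5b, best known from blood vessels in the mouse, read 40.95, 53.1 and 34.9 CPM in the control and 38.3 and 43.3 CPM in the HFD libraries of E14.5, 32.1, 30.2 and 25.1 against 28.4 and 26.6 CPM at E16.5 and 21.6 and 21.2 against 22.9 and 21.3 CPM at E18.5. Its stages did not overlap, each lower than the last, and the difference was -0.95 ± 0.13 (SE, edgeR adjusted p = 4.06e-05). Unc5c read 78.6, 68.1 and 70.96 CPM in the control and 87.5 and 112 CPM in the HFD libraries of E14.5, 29.5, 41 and 53.8 against 35.2 and 54.1 CPM at E16.5 and 42.4 and 52 against 43.8 and 56.2 CPM at E18.5. Only the E14.5 libraries stood apart here, above all the others, with a difference of -0.81 ± 0.18 (SE, edgeR adjusted p = 0.00201). Dcc, the attractive netrin receptor, ran from 74.98 to 200.5 CPM at E14.5 through 215 to 259 at E16.5 to 166 to 219 at E18.5. Its stages E14.5 and E18.5 overlapped, although the fitted difference of 0.64 ± 0.18 (SE, edgeR adjusted p = 0.0074) passed the threshold.

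Neither of the 2 netrins among the members passed the test. Another netrin, Ntn3, was counted with the pathway partners. It averaged 25.8 CPM in control and 40.1 CPM in HFD at E14.5, and 11.3 and 12.4 CPM at E18.5. Ntn1, the netrin of the floor plate and ventricular zone, ran from 24.8 to 49.7 CPM at E14.5, 20.2 to 34.1 at E16.5 and 19.5 to 36.6 at E18.5, with a log2 fold change of -0.44 ± 0.24 (SE, edgeR adjusted p = 0.138). Ntn4, which binds laminins of basement membranes, ran from 7.94 to 15.9, 11.2 to 15.3 and 8.11 to 10.9 CPM, a log2 fold change of -0.04 ± 0.17 (SE, edgeR adjusted p = 0.856). For both genes the E14.5 and E18.5 ranges overlapped.

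The 3 Slits divided in the same way. Slit1 read 84.5, 39.4 and 69.9 CPM in the control and 40.65 and 23.4 CPM in the HFD libraries of E14.5, 134, 134 and 108 against 139.7 and 130.0 CPM at E16.5 and 165 and 128 against 174 and 149 CPM at E18.5. The E14.5 libraries were the lowest of all and the later stages overlapped. It rose by 1.76 ± 0.22 (SE, edgeR adjusted p = 2.7e-05), or 3.39-fold. Slit2 read 134, 137 and 134 CPM in the control and 133 and 150.1 CPM in the HFD libraries of E14.5, 47.3, 61.3 and 86.3 against 74.5 and 75.6 CPM at E16.5 and 68.4 and 73 against 56.1 and 67.9 CPM at E18.5. The 5 E14.5 libraries lay within 133 to 150.1 CPM and none of the later libraries exceeded 86.3 CPM. Its log2 fold change was -1.06 ± 0.14 (SE, edgeR adjusted p = 4.12e-05). Slit3 read 64.2, 49.9 and 29.2 CPM in the control and 68.4 and 73.1 CPM in the HFD libraries of E14.5, 21.3, 25.6 and 18.2 against 20.5 and 21.7 CPM at E16.5 and 26.5 and 36.1 against 33.5 and 29.9 CPM at E18.5. It was lowest at E16.5 and higher again at E18.5 in every library, and 1 control library of E14.5 lay inside the E18.5 range. Its whole-span change was -0.88 ± 0.20 (SE, edgeR adjusted p = 0.00205), and with the library set apart included it was -0.64 with an adjusted p of 0.0579 in edgeR, past the threshold no longer.

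Of the Slit receptors, Robo1 and Robo2, which are expressed together on many forebrain axons, rose, whereas Robo3, known from commissural axons of the hindbrain and spinal cord, fell. Robo1 read 231, 167 and 213 CPM in the control and 233 and 233 CPM in the HFD libraries of E14.5, 262, 259 and 253 against 269 and 283 CPM at E16.5 and 363 and 333 against 331 and 308 CPM at E18.5. Its 3 stages did not overlap and it rose by 0.62 ± 0.09 (SE, edgeR adjusted p = 9.91e-05). Robo2 read 174, 107 and 192 CPM in the control and 193 and 208 CPM in the HFD libraries of E14.5, 298, 307 and 299.5 against 274 and 339 CPM at E16.5 and 377 and 374 against 369 and 360.0 CPM at E18.5. These stages did not overlap either, and the rise was 1.06 ± 0.14 (SE, edgeR adjusted p = 4e-05), or 2.08-fold. Robo3 read 138, 39.7 and 28.8 CPM in the control and 35.3 and 17.7 CPM in the HFD libraries of E14.5, 5.23, 12.1 and 16.3 against 15.6 and 13.3 CPM at E16.5 and 7.71 and 10.6 against 7.08 and 12.2 CPM at E18.5. A single library, E14.5 control replicate 1, stood at 137.6 CPM, and it is the library with the highest hindbrain and branchial arch sum of the fit. The other E14.5 libraries did not follow that order. Control replicates 2 and 3 had sums of 0.687 and 0.348 CPM and the HFD libraries 10.4 and 6.67 CPM, yet Robo3 was higher in control replicate 2 than in either HFD library. The E14.5 libraries still exceeded all later ones in Robo3. The log2 fold change was -2.16 ± 0.54 (SE, edgeR adjusted p = 0.00605). Without E14.5 control replicate 1 it was -1.66 with an adjusted p of 0.00166 (edgeR), and with the library set apart included -0.98 with an adjusted p of 0.294.

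Among the Eph receptors of the B class, 2 rose and 2 fell. Ephb6, a receptor without kinase activity, read 25.5, 17.6 and 18.1 CPM in the control and 20.6 and 20.4 CPM in the HFD libraries of E14.5, 37.6, 37.4 and 31.3 against 37.8 and 38.2 CPM at E16.5 and 53.3 and 45.5 against 46.6 and 49.4 CPM at E18.5. Its stages did not overlap, and it rose by 1.26 ± 0.12 (SE, edgeR adjusted p = 2.79e-06). Ephb1 read 82.4, 47.2 and 89.2 CPM in the control and 52.8 and 32.4 CPM in the HFD libraries of E14.5, 123, 141 and 114 against 136 and 139.5 CPM at E16.5 and 178 and 139 against 163 and 162 CPM at E18.5. It was lowest in the E14.5 libraries, with overlap afterwards, and its change was 1.53 ± 0.19 (SE, edgeR adjusted p = 2.54e-05). Ephb4, in the mouse a receptor of venous endothelium, read 153, 138 and 92.6 CPM in the control and 168 and 183 CPM in the HFD libraries of E14.5, 62.4, 60.7 and 59.2 against 62.1 and 48.5 CPM at E16.5 and 35.6 and 33.2 against 38.5 and 38.3 CPM at E18.5. Each stage lay wholly below the last and it fell to 0.243 of its E14.5 level, a log2 fold change of -2.04 ± 0.14 (SE, edgeR adjusted p = 5.42e-07). Ephb3 read 95.4, 82.99 and 46.03 CPM in the control and 102 and 108 CPM in the HFD libraries of E14.5, 22.2, 25.4 and 26.9 against 29.8 and 24.6 CPM at E16.5 and 26.7 and 21.4 against 20.9 and 24.2 CPM at E18.5. Every E14.5 library exceeded every later one, E16.5 and E18.5 overlapped, and the difference was -1.93 ± 0.19 (SE, edgeR adjusted p = 4.22e-06). Ephb2 overlapped between all stages, from 149 to 241 CPM at E14.5 to 165 to 192 CPM at E18.5, and its log2 fold change was -0.12 ± 0.10 (SE, edgeR adjusted p = 0.308). The 7 blood vessel markers tested had sums of 210.6 to 297.2 CPM at E14.5 and 204.7 to 276.8 CPM at E18.5, with 1 called higher and 4 lower.

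**Figure D3:**
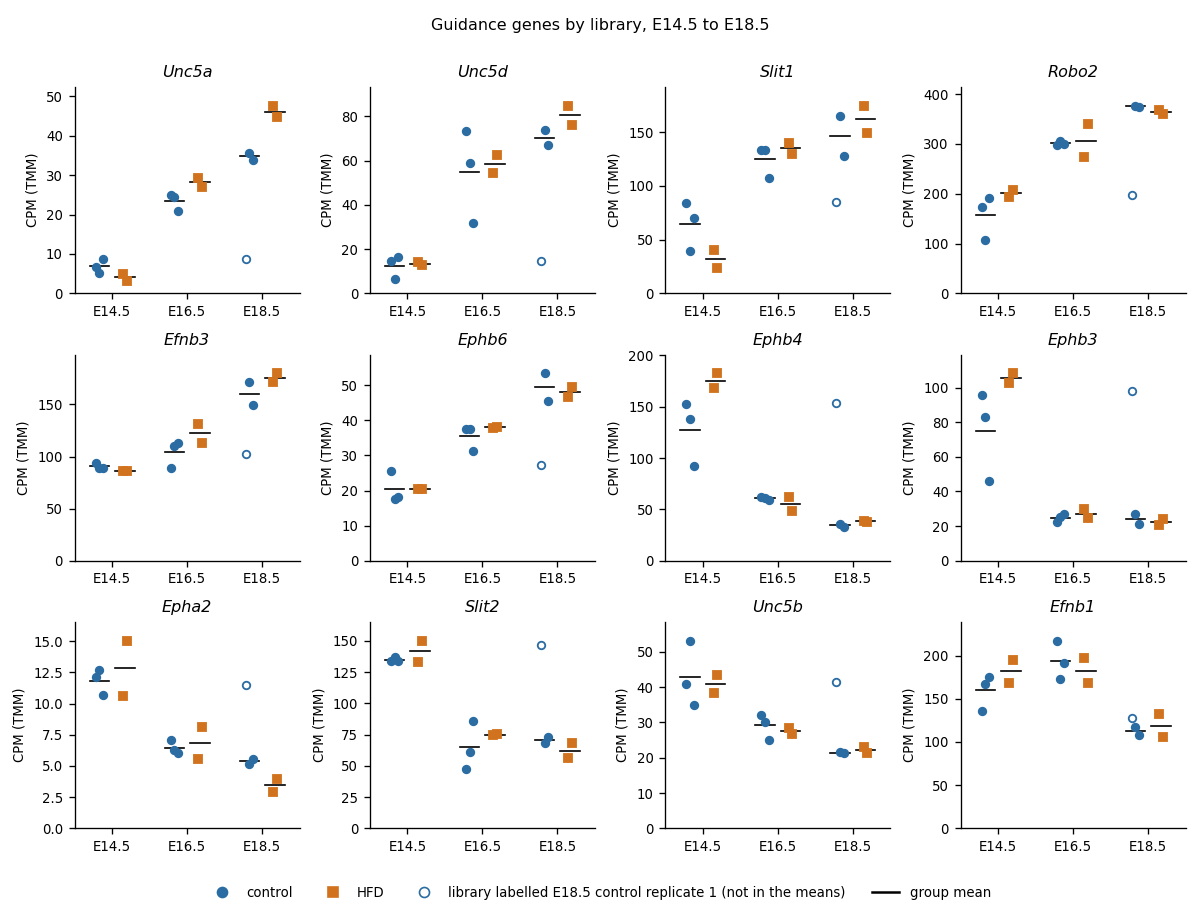
CPM of 12 members in each library by stage, each on its own linear axis from 0, with control as circles, HFD as squares, the group mean as a line and the library labelled E18.5 control replicate 1 as an open circle. Unc5a, Unc5d, Slit1, Robo2, Efnb3 and Ephb6 rise and the other 6 fall. The open circle lies near the E14.5 values, at 8.83 CPM for Unc5a and 153.3 CPM for Ephb4.

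Of the A class receptors, which bind mainly the lipid-anchored ephrins, Epha5 and Epha8 rose most. Epha5, which takes part in topographic mapping, read 66.1, 34.9 and 178 CPM in the control and 81.99 and 47.5 CPM in the HFD libraries of E14.5, 443, 407 and 321 against 314 and 442 CPM at E16.5 and 281 and 368 against 331 and 322 CPM at E18.5. The E14.5 control libraries differed among themselves by several-fold, but all later libraries were above them. The change was 2.07 ± 0.41 (SE, edgeR adjusted p = 0.00147). Epha8 read 9.94, 7.21 and 8.12 CPM in the control and 5.20 and 2.86 CPM in the HFD libraries of E14.5, 6.54, 7.78 and 11.8 against 11.3 and 12.2 CPM at E16.5 and 20.4 and 14.1 against 16.9 and 20.6 CPM at E18.5. E18.5 lay above both earlier stages, and the rise was 1.63 ± 0.22 (SE, edgeR adjusted p = 3.7e-05). Epha2, a receptor abundant in epithelia, read 12.2, 12.7 and 10.7 CPM in the control and 10.6 and 15.04 CPM in the HFD libraries of E14.5, 7.10, 6.25 and 6.04 against 5.57 and 8.17 CPM at E16.5 and 5.19 and 5.55 against 2.93 and 3.96 CPM at E18.5. Its stages did not overlap and it fell by 1.51 on the log2 scale, with an SE of 0.17 and an edgeR adjusted p of 1.32e-05.

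The remaining A class receptors had smaller differences. Epha3 rose over the span, from 77.1 to 175 CPM at E14.5 to 210.3 to 296 at E16.5 and 158 to 235 at E18.5, with a whole-span change of 0.76 ± 0.21 (SE, edgeR adjusted p = 0.00777) that was 0.61 with an edgeR adjusted p of 0.0762 when the library set apart was included. Epha10, which like Ephb6 lacks kinase activity, changed by 1.08 ± 0.39 (SE, edgeR adjusted p = 0.0313) on levels of 0.529 to 7.71 and 2.90 to 7.42 CPM that overlapped between those stages. Epha7, a receptor involved in the mapping of thalamic axons, fell from E14.5 to E16.5 in both diets, and its rise from E16.5 to E18.5 was called in HFD but not in control. It ran from 62.6 to 91.7 CPM at E14.5 and 41.5 to 52.1 at E16.5 to 59.7 to 69.6 at E18.5, and its whole-span difference was -0.27 ± 0.11 (SE, edgeR adjusted p = 0.0446), or -0.19 with an edgeR adjusted p of 0.215 when the library set apart was included. Epha4, which binds ephrins of both classes, rose from E14.5 to E16.5 in both diets and passed the test in neither diet from E16.5 to E18.5, with 181 to 301, 352 to 444 and 275 to 342 CPM at the 3 stages and a whole-span difference of 0.29 ± 0.14 (SE, edgeR adjusted p = 0.0898). For Epha4 and Epha7 every E16.5 library lay outside the ranges of both other stages. Both whole-span calls of Epha7 and Epha10 were lost without E14.5 control replicate 2, E14.5 HFD replicate 2, E18.5 control replicate 2 or either HFD library of E18.5. The call of Epha7 was also lost without E14.5 control replicate 1 or any E16.5 control library, and that of Epha10 without E14.5 control replicate 3.

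Among the ephrins, Efnb3, a B class ligand that stops corticospinal axons at the midline in the mouse, rose. It read 93.5, 89.1 and 89.2 CPM in the control and 85.9 and 86.3 CPM in the HFD libraries of E14.5, 89.3, 110.3 and 113 against 131 and 113 CPM at E16.5 and 172 and 149 against 172 and 179.8 CPM at E18.5. The E18.5 libraries were above all earlier ones, and the whole-span change was 0.93 ± 0.09 (SE, edgeR adjusted p = 3.25e-06). Efna3 read 2.74, 1.26 and 2.09 CPM in the control and 2.08 and 2.86 CPM in the HFD libraries of E14.5, 5.98, 4.72 and 2.54 against 5.45 and 3.95 CPM at E16.5 and 7.32 and 6.15 against 8.63 and 6.86 CPM at E18.5. E18.5 lay above both other stages, which overlapped each other at a few CPM, and the rise was 1.69 ± 0.28 (SE, edgeR adjusted p = 0.00022). Efnb1, whose loss causes craniofrontonasal syndrome in humans, read 136, 168 and 175 CPM in the control and 168 and 195 CPM in the HFD libraries of E14.5, 217, 173 and 191 against 197 and 168 CPM at E16.5 and 117 and 108 against 133 and 105 CPM at E18.5. It dropped only at E18.5, below every earlier library, and its log2 fold change was -0.56 ± 0.11 (SE, edgeR adjusted p = 0.000965). Efnb2, the partner of Ephb4 at vessels in the mouse, ran from 146 to 218 CPM at E14.5 to 299 to 377 at E16.5 and 222 to 262 at E18.5, and each of these ranges was clear of the others. Its difference over the whole span was 0.36 ± 0.12 (SE, edgeR adjusted p = 0.0214), a call that was lost without E14.5 HFD replicate 1, E18.5 control replicate 3 or E18.5 HFD replicate 1. With the library set apart included it was 0.27 with an edgeR adjusted p of 0.155.

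Of the other A class ephrins, Efna5, Efna4 and Efna1 were called lower at E18.5 than at E14.5 and Efna2 did not pass. Efna5, a graded ligand in cortical and thalamic mapping, read 12.3, 11.1 and 7.65 CPM in the control and 14.4 and 11.8 CPM in the HFD libraries of E14.5, 3.37, 2.92 and 4.88 against 3.42 and 4.87 CPM at E16.5 and 5.32 and 3.02 against 3.97 and 4.77 CPM at E18.5. The E14.5 libraries exceeded all others, and the change was -1.44 ± 0.23 (SE, edgeR adjusted p = 0.000188). Efna4 read 17.3, 20.1 and 13.4 CPM in the control and 20.6 and 25.2 CPM in the HFD libraries of E14.5, 14.6, 13.2 and 13.2 against 12.4 and 12.2 CPM at E16.5 and 8.51 and 12.6 against 12.4 and 11.98 CPM at E18.5. E14.5 exceeded E18.5 without overlap, with a difference of -0.80 ± 0.15 (SE, edgeR adjusted p = 0.000558). Efna1 read 5.83, 5.72 and 4.06 CPM in the control and 8.43 and 8.26 CPM in the HFD libraries of E14.5, 2.99, 4.72 and 3.39 against 1.90 and 3.56 CPM at E16.5 and 3.06 and 3.74 against 3.28 and 2.33 CPM at E18.5. E14.5 and E18.5 did not overlap, but E16.5 overlapped both, and the difference was -1.10 ± 0.23 (SE, edgeR adjusted p = 0.00148). Efna2 ran from 14.6 to 26.7 CPM at E14.5 to 13.6 to 20.2 CPM at E18.5 and its log2 fold change was -0.47 ± 0.19 (SE, edgeR adjusted p = 0.0551).

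Most of these differences lay between E14.5 and E16.5. In control, 13 members rose and 11 fell over this step, beside 13.4% and 9.8% of all genes tested, and in HFD 14 rose and 11 fell, beside 18.2% and 12.7%. In both diets 11 members rose and 9 fell, 9 were called in 1 diet and 5 in neither. The share of all genes called in both diets is not given here, for this step or the next. Such counts are therefore not read as particular to the members. Unc5a rose by 1.77 ± 0.19 (SE, edgeR adjusted p = 0.000363) in control and by 2.79 ± 0.24 (SE, edgeR adjusted p = 4.63e-05) in HFD, and Ephb3 changed by -1.58 ± 0.22 (SE, edgeR adjusted p = 0.00095) and -1.95 ± 0.27 (SE, edgeR adjusted p = 0.000386). The head mesenchyme and meninges markers fell over the same step, with 11 of the 14 tested called lower in control and 14 in HFD. With the mean level of those markers as a covariate edgeR called no member over this step in either diet, and those whose unadjusted p lay under 0.05 were 1 higher with 1 lower in control and 2 higher with 1 lower in HFD. Without E14.5 HFD replicate 2 the HFD step had 13 calls in place of 25. With all 15 libraries the HFD step had 14 calls and the control step none by edgeR, where 14 higher and 13 lower members stood at an unadjusted p under 0.05. The library added there belongs to neither stage of this step, and the spread of a gene was estimated over all groups. The fit of only the groups compared kept 16 of the main calls in control and 24 in HFD.

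Between E16.5 and E18.5 fewer members passed the test, 5 in control and 3 in HFD. Control libraries of E18.5 lay wholly above those of E16.5 for 10 members and wholly below for 9, beside 3621 and 3483 of all 15417 genes. For the HFD libraries these numbers were 14 and 13 members, beside 4187 and 4286 of all genes. In control, Efnb3 (0.62 ± 0.12 (SE, edgeR adjusted p = 0.00716)), Epha8 (0.96 ± 0.28 (SE, edgeR adjusted p = 0.047)) and Robo1 (0.43 ± 0.12 (SE, edgeR adjusted p = 0.0449)) rose and Ephb4 (-0.82 ± 0.18 (SE, edgeR adjusted p = 0.0165)) and Efnb1 (-0.78 ± 0.15 (SE, edgeR adjusted p = 0.00872)) fell, 3 higher and 2 lower beside 4.86% and 5.4% of all genes. In HFD, Efnb3 (0.52 ± 0.13 (SE, edgeR adjusted p = 0.0369)) and Epha7 (0.60 ± 0.16 (SE, edgeR adjusted p = 0.0458)) rose and Efnb1 (-0.62 ± 0.17 (SE, edgeR adjusted p = 0.0481)) fell, 2 higher and 1 lower beside 2.04% and 3.84%. Efnb3 and Efnb1 were thus called in both diets, 4 members in 1 diet and 28 in neither. For the control step DESeq2 and limma-voom called 8 members each, and the fit of only the groups compared called 10. The shares of all genes called under these settings are not given here. These calls rest on few libraries, and some also moved when the library left out was in neither group compared. The spread of a gene was estimated over all groups in the main fit. The fit of only the groups compared kept all 5 control calls and all 3 HFD calls. Without E18.5 control replicate 2 none of the 5 control calls passed, without E18.5 control replicate 3 only Efnb3 did, and without 1 of E16.5 control replicates 1 and 2 or of the HFD libraries of E16.5 and E18.5 the calls of Epha8 and Robo1 were lost. Robo1 was also lost without either HFD library of E14.5 or E16.5 control replicate 3. Without E14.5 control replicate 2 or 3 the control calls numbered 9 and 8, and the HFD calls 5 each time. All 3 HFD calls were lost without any 1 of the 6 HFD libraries or without E16.5 control replicate 2, and Efnb1 and Epha7 also without E16.5 control replicates 1 or 3 or E18.5 control replicates 2 or 3. With all 15 libraries neither diet had a call by edgeR. The members whose unadjusted p lay under 0.05 then numbered 7 higher with 3 lower in control and 2 higher with 3 lower in HFD.

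Genes that work with these receptors were counted from lists of pathway partners. Of 15 Eph signal transducers, 6 rose and 3 fell between E14.5 and E18.5, where 28.9% of all genes tested rose and 28.9% fell. Ngef, the exchange factor ephexin, went from 1.86 ± 0.283 CPM (SD, n = 3) in E14.5 control to 23.5 ± 0.189 CPM (SD, n = 2) in E18.5 control, a log2 fold change over both diets of 3.50 ± 0.23 (SE, edgeR adjusted p = 4.52e-07). Grip2 and Grip1, PDZ adaptors of B class ephrins, rose by 3.92 ± 0.35 (SE, edgeR adjusted p = 3.55e-06) and 0.89 ± 0.09 (SE, edgeR adjusted p = 7.1e-06) on the same scale. Of 11 Slit and Robo partners, 7 rose and 2 fell. Srgap1, a GTPase-activating protein that binds Robo1, rose by 1.17 ± 0.08, Sdc3, a heparan sulfate proteoglycan, by 1.70 ± 0.12 and Nell2, a secreted ligand of Robo3, by 2.02 ± 0.16, all log2 fold changes with SE. Of 18 netrin and Unc5 partners 17 were tested, 11 rose and 5 fell. Dock1, an exchange factor downstream of Dcc, fell by 1.76 with an SE of 0.10, while the kinase Fyn rose by 0.99 ± 0.11 and the netrin pathway ubiquitin ligase Trim9 by 1.60 ± 0.18 (log2 fold changes with SE).

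The row AABR07033882.1, whose name is a RefSeq synonym of Epha6, was not chosen by the rule and was looked at apart. It was at 0.572 to 2.23 CPM in the control and 0.847 to 1.39 CPM in the HFD libraries of E14.5, at 5.51 to 6.54 and 6.21 to 6.32 CPM at E16.5 and at 9.17 to 9.58 and 9.15 to 10 CPM at E18.5. Each stage lay above the one before.

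The main question of the study design was whether the maternal diet changed the embryonic cortex. At E14.5 none of the 34 members and none of the 15417 genes (0%) differed between HFD and control at an adjusted p under 0.05 in edgeR, and DESeq2 and limma-voom called no member either. At an unadjusted p under 0.05, 4 members were higher and 7 lower with HFD in edgeR, beside 4.66% and 4.96% of all genes, and the counts were 2 and 7 in DESeq2 and 5 and 7 in limma-voom. With all 15 libraries they were 0 and 6 in edgeR. The shares of all genes in DESeq2, in limma-voom and with 15 libraries are not given here, so those counts are not read as particular to the members. The HFD libraries lay wholly above the control libraries for 8 members and wholly below for 6, beside 10.8% and 10.1% of all genes. The 7 lower members under that unadjusted p were Ephb2, Epha10, Epha8, Slit1, Unc5a, Dcc and Ephb1, and the 4 higher ones Ephb4, Efna1, Efna4 and Slit3. The members' median log2 fold change was 0.09, beside -0.02 over all genes.

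The 4 members with the smallest p at E14.5 were all lower with HFD. Ephb2 read 219, 241 and 236 CPM in the control and 184 and 149 CPM in the HFD libraries of E14.5. The groups did not overlap, and the log2 fold change was -0.48 ± 0.13 (SE, edgeR unadjusted p = 0.00355, adjusted p = 0.285). Epha10 read 7.71, 4.12 and 3.59 CPM in the control and 2.08 and 0.529 CPM in the HFD libraries of E14.5. The groups did not overlap at these low levels, and the change was -1.96 ± 0.57 (SE, edgeR unadjusted p = 0.00488, adjusted p = 0.295). Epha8, at the E14.5 levels given above, was also lower in both HFD libraries than in any control library, by -1.06 ± 0.31 (SE, edgeR unadjusted p = 0.0055, adjusted p = 0.304). For Slit1, HFD replicate 1 at 40.65 CPM lay just above control replicate 2 at 39.4 CPM, and the difference was -1.01 ± 0.30 (SE, edgeR unadjusted p = 0.00599, adjusted p = 0.31). Diencephalon markers were lower with HFD at the same stage for 7 of 7 genes, with sums of 268.3, 213.6 and 307.6 CPM in control libraries against 204.5 and 118.9 CPM in HFD, and the head mesenchyme markers were higher for 14 of 14. Skeletal muscle and surface epithelium markers were each higher for 7 of 7, and blood vessel markers for 6 of 7. None of these markers passed the threshold, and their part in the differences was not tested.

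The higher members at E14.5 were Ephb4, at 0.46 ± 0.17 (SE, edgeR unadjusted p = 0.0205, adjusted p = 0.41), Efna1, at 0.69 ± 0.29 (SE, edgeR unadjusted p = 0.0359, adjusted p = 0.469), Efna4, at 0.43 ± 0.19 (SE, edgeR unadjusted p = 0.0422, adjusted p = 0.499), and Slit3, at 0.57 ± 0.25 (SE, edgeR unadjusted p = 0.0434, adjusted p = 0.501). All 4 had HFD libraries above all control libraries. Dcc was at -0.78 ± 0.24 (SE, edgeR unadjusted p = 0.00774, adjusted p = 0.327), Ephb1 at -0.78 ± 0.26 (SE, edgeR unadjusted p = 0.0117, adjusted p = 0.359) and Unc5a at -0.76 ± 0.24 (SE, edgeR unadjusted p = 0.00753, adjusted p = 0.326). Without E14.5 control replicate 2, Dcc, Ephb1 and Slit1 passed the threshold, each with an edgeR adjusted p of 0.0376 and log2 fold changes of -0.99, -1.01 and -1.27. The share of all genes called in that fit is not given here, so these calls are not read as particular to the members. Without E14.5 HFD replicate 2 no member was under an unadjusted p of 0.05 (edgeR).

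**Figure D4:**
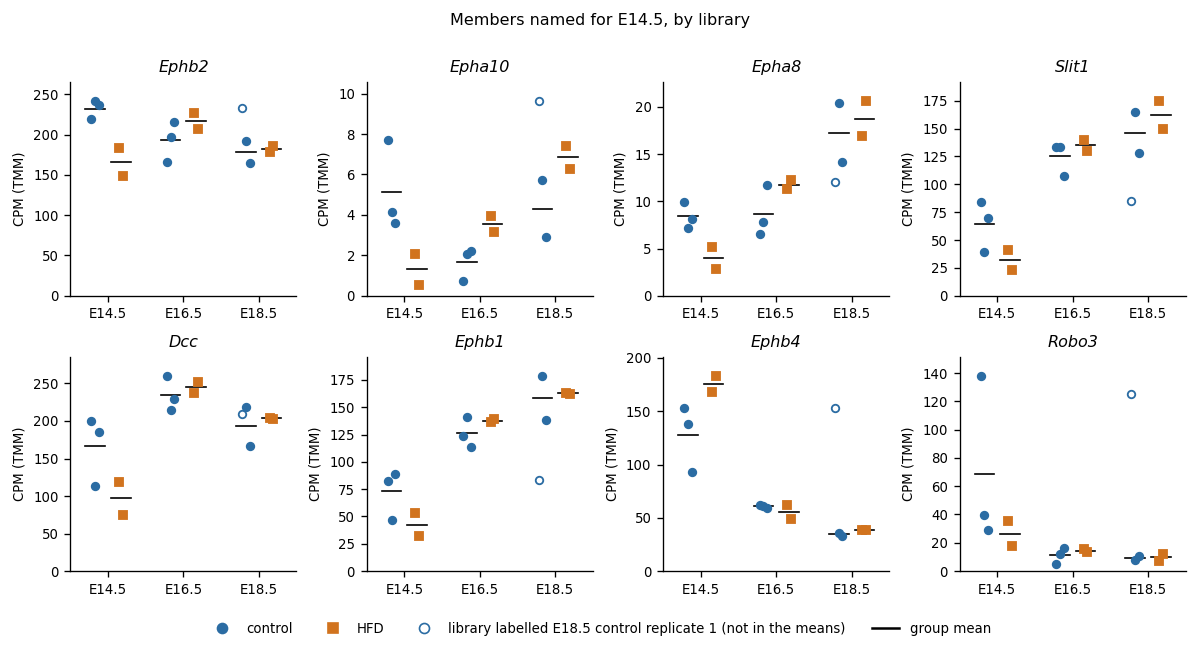
CPM of 8 members in each library by stage, drawn as in the plot of 12 members. At E14.5 the HFD squares of Ephb2, Epha10 and Epha8 lie below all control circles and those of Ephb4 above them, while those of Slit1, Dcc and Ephb1 overlap the control range. Robo3 has 2 values above 100 CPM, 137.6 in E14.5 control replicate 1 and 125.2 in the open circle.

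At E16.5 and E18.5 the diet groups were closer. At E16.5 edgeR, DESeq2 and limma-voom called no member, and no gene passed in edgeR (0%). No member was under an unadjusted p of 0.05 in either direction in any of these tools, beside 0.992% higher and 1.37% lower of all genes in edgeR. The smallest p values belonged to Efnb3 at 0.23 ± 0.12 (SE, edgeR unadjusted p = 0.0757, adjusted p = 1), Epha10 at 1.01 ± 0.55 (SE, edgeR unadjusted p = 0.0885, adjusted p = 1), Unc5a at 0.27 ± 0.19 (SE, edgeR unadjusted p = 0.169, adjusted p = 1) and Epha8 at 0.41 ± 0.29 (SE, edgeR unadjusted p = 0.174, adjusted p = 1). For Epha10 the libraries read 0.748, 2.08 and 2.23 against 3.93 and 3.16 CPM at E16.5, control against HFD. Epha10, Unc5a and Efnb3 had both HFD libraries above the controls, whereas Epha8 overlapped. The 7 diencephalon markers were all higher with HFD at this stage, with sums of 72.5, 144.0 and 270.5 CPM in control libraries against 240.2 and 266.7 CPM in HFD, and none of them was called. Head mesenchyme markers were lower with HFD for 14 of 14 genes and blood vessel markers for 7 of 7, again with none called. The part of these markers in the member differences was not tested.

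At E18.5, again with no member called by the 3 tools and 0% of all genes called in edgeR, 1 member was lower at an unadjusted p under 0.05 and none higher in edgeR, beside 0.915% and 0.668% of all genes. DESeq2 had no member under that p and limma-voom had 1, higher with HFD. Epha2 read 5.19 and 5.55 against 2.93 and 3.96 CPM at E18.5, without overlap, a log2 fold change of -0.62 ± 0.27 (SE, edgeR unadjusted p = 0.0412, adjusted p = 1). Unc5a was at 0.41 ± 0.20 (SE, edgeR unadjusted p = 0.0636, adjusted p = 1) with both HFD libraries above both controls, and Efna2, which read 13.6 and 14.1 against 20.2 and 16.6 CPM at E18.5, was at 0.41 ± 0.29 (SE, edgeR unadjusted p = 0.187, adjusted p = 1). Epha10 read 5.72 and 2.90 against 7.42 and 6.28 CPM at E18.5 and was at 0.67 ± 0.54 (SE, edgeR unadjusted p = 0.241, adjusted p = 1). Surface epithelium markers were lower with HFD at E18.5 for 6 of 7 genes, head mesenchyme markers for 12 of 14 and blood vessel markers for 7 of 7. Diencephalon markers were higher for 7 of 7. None of these markers was called. With the mean level of the head mesenchyme markers as a covariate edgeR called no member, and 2 were higher and none lower at an unadjusted p under 0.05. The shares of all genes in that fit are not given here, and the part of the markers was not tested beyond it. With the library labelled E18.5 control replicate 1 in the control group, no member was called at any stage.

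**Figure D5:**
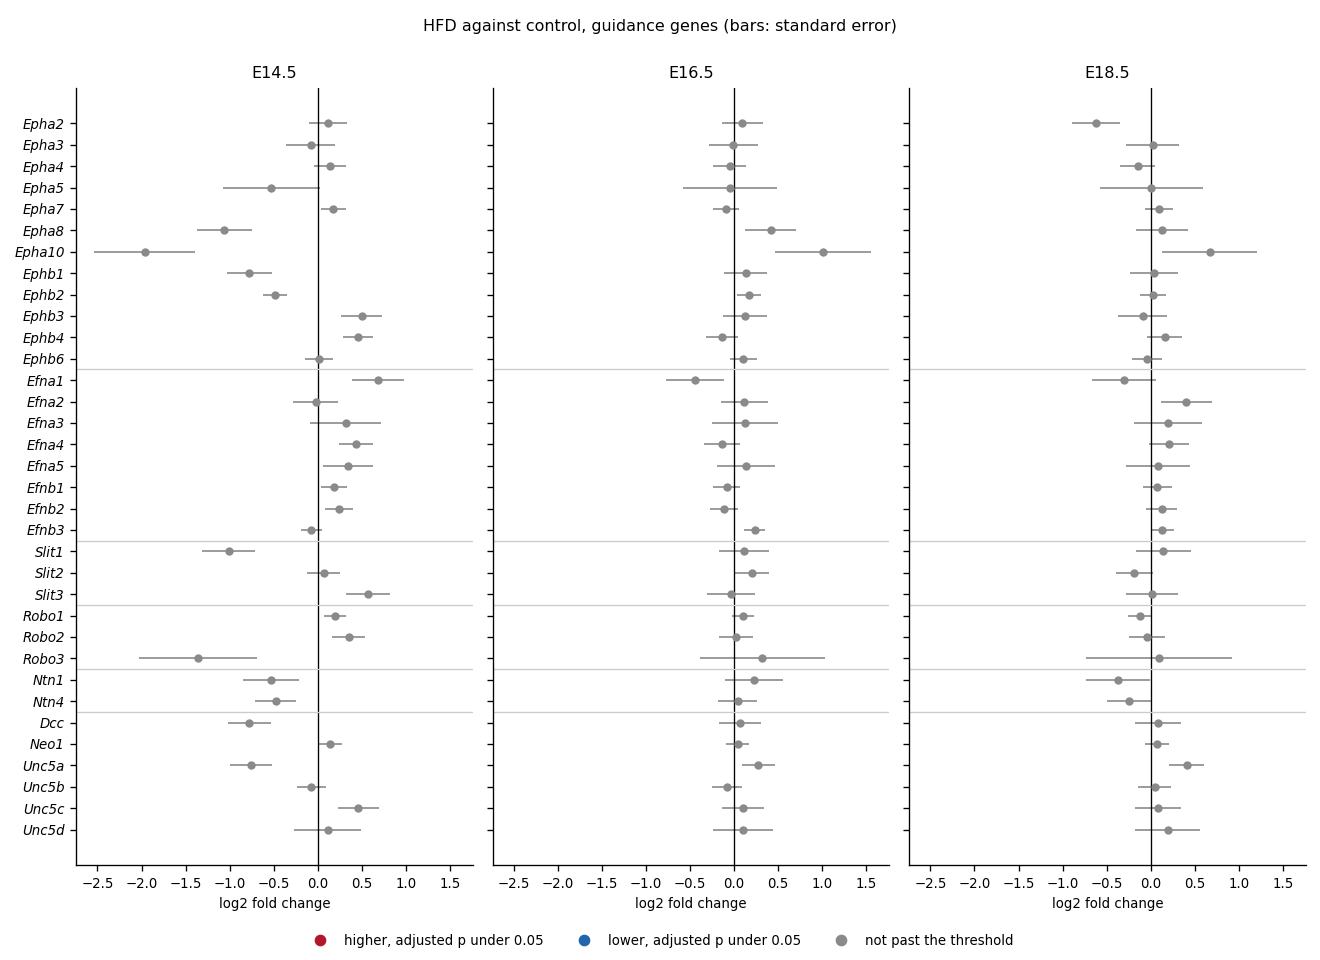
Log2 fold changes of HFD against control with standard errors for the 34 members in 1 panel per stage, in order of role and on a shared axis. No point passed an adjusted p of 0.05. Epha10 lies farthest left at E14.5, at -1.96, and farthest right at E16.5 and E18.5, at 1.01 and 0.67.

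Averaged over the 3 stages, edgeR called no member and no gene (0%) for diet, and no member was under an unadjusted p of 0.05 in edgeR, DESeq2 or limma-voom, beside 1.38% higher and 1.54% lower of all genes in edgeR. With the head mesenchyme covariate 3 members were higher and 1 lower under that p in edgeR, and none was called. The shares of all genes in that fit are not given here. The difference of the diet effect between E14.5 and E16.5 was tested directly and passed for no member and no gene (0%), nor for a member in the other tools. At an unadjusted p under 0.05, 7 members had a higher diet effect at E16.5 and 2 a lower one, beside 4.31% and 3.72% of all genes, and the counts were the same in DESeq2 and limma-voom but 5 and 0 in edgeR with all 15 libraries. These shares of all genes are from the main edgeR fit, and those of the other fits are not given here. Epha10 had the smallest p, with a difference of 2.97 ± 0.79 (SE, edgeR unadjusted p = 0.00259, adjusted p = 0.386), and Epha8 followed with 1.47 ± 0.42 (SE, edgeR unadjusted p = 0.0045, adjusted p = 0.42). The others were Ephb2, Unc5a, Slit1, Ephb1 and Dcc, with a higher, and Efna1 and Ephb4, with a lower diet effect at E16.5. The comparisons at E14.5 enter both this test and the diet comparison above, so the counts are not independent. Between E16.5 and E18.5 no member and no gene (0%) differed in diet effect by edgeR, and no member was under an unadjusted p of 0.05 in edgeR, DESeq2 or limma-voom, beside 0.662% and 0.642% of all genes. With all 15 libraries 1 member, with a lower diet effect at E18.5, was under it in edgeR. None of the 15 Eph, 11 Slit and 17 netrin partners tested was called in a diet comparison by edgeR, and at E14.5 those under an unadjusted p of 0.05 were 2 lower, 2 lower, and 2 higher with 4 lower, beside 4.66% higher and 4.96% lower of all genes.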

How the data were processed

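Ribosomal RNA was depleted before library preparation; whether reads keep their strand was not given in the sources used here, so overlapping or antisense genes may share reads. The deposited values are estimated counts per gene, given as whole numbers. Per the methods of the study, the authors aligned reads with Bowtie2 to RGSC v6.0 (rn6) and estimated counts with RSEM, using a transcriptome release that is human by name, whereas the submitters' processing notes list HTSeq.

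The low-count filter (filterByExpr by group) and TMM factors were taken over 15 libraries, and 14 were fitted over 15417 genes with 1 mean per stage and diet (edgeR 4.0.16, R 4.3.3, robust quasi-likelihood, Benjamini-Hochberg). P-values measure the spread between litter pools. Alternatives were DESeq2 1.42.0, limma-voom (limma 3.58.1), RLE and upper-quartile factors, other filters, all 15 libraries, a replicate block, a head mesenchyme covariate, only the groups compared, and each library left out. Scripts were tested on simulated data.

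Members, lists and tests were chosen with earlier results of these data known. Values in every library were given for the 4 members of smallest p in each diet comparison of 1 stage and for up to 12 called members per direction between E14.5 and E18.5, and 3 partners of smallest p per pathway list were named. Of the other marker lists, from E14.5 to E18.5, cortical progenitors had 3 of 12 called higher and 6 lower, and lower calls were 5 of 7 in skeletal muscle, 6 of 7 in surface epithelium and 3 of 7 in diencephalon. All 4 hindbrain and branchial arch markers tested were lower in sign and none passed in edgeR. RefSeq promoter windows (GRCr8) were searched as letters on both strands.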

Additional observations from a re-analysis of the deposited data

Results flagged for a closer look

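Robo3, the receptor of hindbrain and spinal commissural axons, stood at 125.2 CPM in the E18.5 control library numbered 1, which was kept out of the comparisons. The other E18.5 libraries ran from 7.08 to 12.2 CPM, and E14.5 control replicate 1 read 137.6 CPM. It was singled out because it lay more than 4 times above the highest of the other E18.5 libraries. The hindbrain and branchial arch markers summed to 30.4 CPM in the same library and to at most 0.69 CPM in the other E18.5 libraries, and their part in the Robo3 level was not tested.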

How the results depend on the processing

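With the library labelled E18.5 control replicate 1 in its group, the members called fell from 24 to 0 (E16.5 against E14.5, control), 25 to 14 (the same step, HFD), 5 to 0 and 3 to 0 (E18.5 against E16.5, control and HFD) and 29 to 24 over the whole span. With the mean level of the head mesenchyme markers as a covariate, these counts were 0, 0, 5, 1 and 1. The members called were not all the same ones. For E18.5 against E16.5 in control, 3 calls were kept, Epha8 and Robo1 were lost and Efnb2 and Unc5a were gained. In HFD no call was kept and Ephb4 was gained. That covariate itself falls with stage and so overlaps with the stage terms of the fit. Among the members named by rule, 7 log2 fold changes changed sign with it: E18.5 against E14.5, Epha5 to -0.99, Ephb3 to 0.25, Efna5 to 0.12, Efna1 to 0.14, Slit3 to 1.37 and Robo3 to 1.97, and for diet at E16.5 Unc5a to 0.00. For E18.5 against E16.5 in control, DESeq2 and limma-voom called 8 members each and the fit of only the groups compared 10. For E16.5 against E14.5 the latter fit kept 16 of the main calls in control and 24 in HFD. The library set apart is in neither group of that step, but the main fit estimated the spread of a gene over all groups. Counts of all genes called moved as well, in 5 comparisons with all 15 libraries, 5 with DESeq2 and 4 with the covariate. They moved in 3 comparisons with only the groups compared and in 1 with limma-voom. The member counts here and below are therefore not read as particular to the members. With E14.5 control represented by replicate 2 alone, an alternative added after seeing the data, the step from E16.5 to E18.5 had 11 calls in control and 7 in HFD, and diet at E14.5 had 1, Robo2.

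Replicate numbers were not treated as pairs in the main fit. The correlations of same-numbered libraries were 0.16 and 0.242 at E14.5, 0.181 and 0.085 at E16.5 and -0.13 at E18.5. The labels do not say whether the numbers mark a batch, and these few correlations cannot settle it. The replicate block gave 5 calls for E18.5 against E16.5 in HFD in place of 3, 7 in control in place of 5, and no diet call. Leaving out 1 library at a time gave 17 to 25 members (E16.5 against E14.5, control), 13 to 26 (HFD), 0 to 9 (E18.5 against E16.5, control), 0 to 5 (HFD), 26 to 31 (whole span), 0 to 3 (diet, E14.5) and 0 in the other diet comparisons. Upper-quartile factors shifted the median of all genes by -0.12 for E16.5 against E14.5 in HFD and turned no called direction among the named members. With 2 or 3 litter pools a group, the SE of the diet effect at E14.5 ran from 0.12 for Efnb3 to 0.67 for Robo3 on the log2 scale. For the reversals and the lost calls the cause was not tested.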
